A study of Danio rerio with 6 samples.

Results

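The uncoupling protein genes ucp1, ucp2 and ucp3 were followed in the adult zebrafish kidney. They are the 3 rows of the count table, out of 31953 genes, whose symbol is ucp1, ucp2 or ucp3 when case is ignored. The table and its symbol list give them as UCP1 (ENSDARG00000023151), UCP2 (ENSDARG00000043154) and ucp3 (ENSDARG00000091209). The family was chosen by measured values of this same comparison, in which ucp3 was already known to be higher in DL, so the differences of its members between the groups are given as descriptions, with no p-value. The calls that fits over all genes make on them are printed beside the share of all genes called, and support nothing. All 3 members passed the filter on low counts, as did 17083 genes in all.

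The study profiled RNA from adult fish carrying the transgene Tg(slc12a3:mCherry), which places a red fluorescent protein under the control of slc12a3, the gene of the thiazide-sensitive sodium-chloride cotransporter. One group (DL) holds 3 libraries of hand-dissected distal late tubule segments, labelled mCh+, and the other (rest) holds 3 libraries of the mesonephros without those segments, labelled mCh-. Both groups come from transgenic adults, and the labels name no treatment, sex or age in days. The labels do not say if libraries came from separate fish or from pools, so the spread between them may be technical. Nor do they say whether a DL and a rest library were taken from the same kidney, so the groups may be paired in a way that could not be resolved.

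Uncoupling proteins are carriers of the inner mitochondrial membrane and belong to the SLC25 family. The best known member, mammalian UCP1, lets protons return to the matrix without making ATP, a leak that fatty acids switch on and purine nucleotides block, and it heats brown fat. UCP2 is found in many mammalian tissues, immune cells among them, and UCP3 mainly in skeletal muscle and brown fat. The transport roles of UCP2 and UCP3 are less settled and have been tied to fatty acid use and to the control of reactive oxygen species. Distal tubule cells are rich in mitochondria, which feed their sodium pumps.

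Total counts ran from 9320756 to 22776825 per library. In DL replicate 1 and rest replicate 3 a single gene, si:dkey-153m14.1, took 38.3% and 36.9% of all counts, and their TMM scaling factors were 0.52 and 0.533 against 1.14 to 1.8 in the other 4 libraries. In those 4 the top gene was ENSDARG00000080337. It took 22.2% and 21.1% in DL replicates 2 and 3, against 12.7% and 11.9% in rest replicates 1 and 2. The reporter's own gene slc12a3, which checks the dissection, had CPM values (counts scaled to the TMM-adjusted library size) of 250.5, 904.5 and 32.95 for DL replicates 1 to 3, against 41.92, 30.36 and 43.03 for rest replicates 1 to 3. DL replicate 3, as labelled, therefore lay inside the range of the rest libraries for that gene. In the 6-symbol list of distal late markers, which includes slc12a3, all 6 genes tested had positive fold changes. The 13 matched genes summed to 548.5, 1179 and 106.8 CPM in DL against 61.37 to 94.72 CPM in the rest libraries. In DL replicate 3 the largest part was GATA3, at 49.8 CPM against 13.38 to 28.34 CPM in the rest. There bsnd (5.39 CPM) and clcnk (11.16 CPM) exceeded the highest rest values, 3.196 and 9.497 CPM, by less. KCNJ1_ENSDARG00000091232, at 7.269 CPM, lay inside the rest range of 3.673 to 11.12 CPM. In whole tissue pieces, a gene carried by fewer cells and a gene with less RNA per cell cannot be told apart.

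The gene ucp3 had by far the widest separation of the family. The deposited counts of DL replicates 1 to 3 were 2250, 8633 and 1062, and those of rest replicates 1 to 3 were 362.6, 124.7 and 75.98. Scaled, these were 312.6, 326.3 and 100.4 CPM in the DL libraries and 11.04, 6.753 and 12.87 CPM in the rest libraries. All DL libraries were high and all rest libraries low, and the lowest DL library was 7.8 times the highest rest library. The DL mean was 246.5 ± 126.7 CPM and the rest mean 10.22 ± 3.141 CPM (SD over 3 libraries each), a ratio of means of 24.1. The fitted log2 fold change, DL minus rest, was 4.59 ± 0.615 (SE), the 30th largest of the 17083 genes tested.

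The neighbouring family member ucp2 showed a much smaller difference. DL replicates 1 to 3 had 139.6, 119.1 and 104.1 CPM, and rest replicates 1 to 3 had 96.01, 61.41 and 26.43 CPM. The DL libraries lay close together, with a highest-to-lowest ratio of 1.34 against 3.63 in the rest, and the lowest DL library was 1.08 times the highest rest library. Means were 121 ± 17.84 CPM and 61.28 ± 34.79 CPM (SD, n = 3 each), and the log2 fold change was 0.98 ± 0.508 (SE). The separation depended on the scaling. With CPM taken on the unscaled library total, ucp2 had 72.49, 138.3 and 118.1 CPM across DL and 172.1, 92.35 and 14.04 CPM across the rest, and the groups overlapped.

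The gene ucp1 did not separate the groups. DL replicates 1 to 3 had 49.88, 369.9 and 243.3 CPM, and rest replicates 1 to 3 had 125.7, 288.1 and 161.6 CPM. DL held both the lowest library, replicate 1, and the highest, replicate 2, so the rest libraries lay between them. Means were 221 ± 161.2 CPM and 191.8 ± 85.3 CPM (SD, n = 3 each), and the log2 fold change was 0.20 ± 0.659 (SE). Within DL the highest ucp1 value was 7.42 times the lowest, against 3.25 times for ucp3 and 1.34 times for ucp2.

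**Figure D1:**
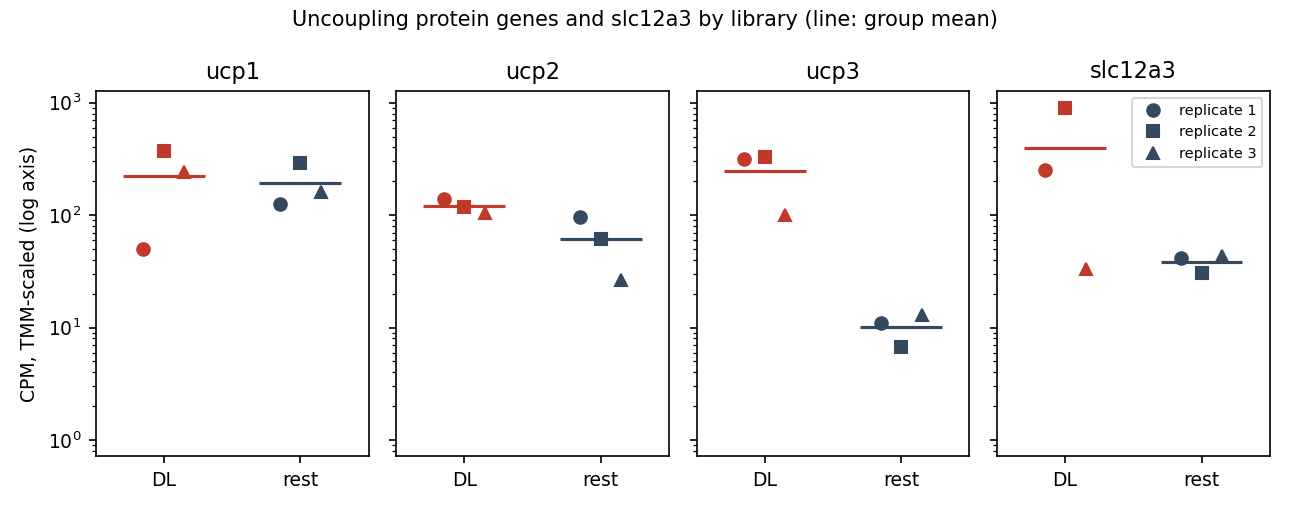
Level of each uncoupling protein gene and of slc12a3 in the 6 libraries, in CPM on a log axis; points are libraries, marker shapes are replicates and lines are group means. The DL and rest points of ucp3 are separated by a factor of at least 7.8, those of ucp2 lie next to each other, and those of ucp1 overlap.

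In the edgeR quasi-likelihood test with Benjamini-Hochberg adjustment at 0.05, 1 of the 3 members, ucp3, was called higher in DL, where 11 of all 17083 genes (0.0644%) were. No member was called lower by edgeR or DESeq2, against 0% and 0.34% of all genes. DESeq2 and limma-voom likewise called ucp3 alone of the family, with 1.36% and 0.0351% of all genes called higher. Every DL library lay above every rest library for ucp3 and ucp2, as for 6.81% of all genes. Because ucp3 helped to choose the family, these calls are no independent test of it and nothing is read from them. The edgeR call on ucp3 ended without any 1 of DL replicate 1, DL replicate 2 or the 3 rest replicates, where its log2 fold change was 4.44, 4.34, 4.67 (rest replicate 1), 4.37 (rest replicate 2) and 4.80 (rest replicate 3). It held without DL replicate 3, at 5.01. The call also ended when libraries were scaled by their totals alone, at 4.15, and when DL replicate 1 and rest replicate 3 were both left out, at 4.60.

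Ratios inside a library do not depend on how libraries are scaled to each other. The log2 ratio of ucp3 to ucp2 counts was 1.16, 1.45 and -0.05 for the DL replicates in order, against -3.12, -3.19 and -1.04 for the rest replicates. The groups did not overlap, with a gap of 0.986 and a difference of means of 3.30 ± 0.843 (SE). The log2 ratio of ucp3 to ucp1 was 2.65, -0.18 and -1.28 in DL and -3.51, -5.42 and -3.65 in the rest. This ratio was also higher in every DL library, by 4.59 ± 1.32 (SE) on average. The ratio of ucp1 to ucp2 overlapped between the groups, with means of 0.46 ± 1.7 in DL and 1.74 ± 1.19 in the rest (SD).

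As a share of the summed counts of the 3 genes, ucp3 made up 62.3%, 40% and 22.4% of the DL replicates in order, against 4.74%, 1.9% and 6.41% of the rest replicates. The ucp1 share was 9.93%, 45.4% and 54.3% in DL and 54%, 80.9% and 80.4% in the rest. These shares are not corrected for transcript length, so they compare a gene across libraries and not the genes with each other. The ucp3 share was higher in every DL library than in any rest library, and it was highest in DL replicate 1, where the ucp1 share was lowest.

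The segment's mitochondrial transcripts were set beside the family. The 98 tested nuclear genes of the respiratory chain, ATP synthase and their assembly factors summed to 3291, 5140 and 1979 CPM in the DL libraries and 2793, 1308 and 1207 CPM in the rest libraries. Relative to that sum, the log2 ratio of ucp3 was -3.40, -3.98 and -4.30 in DL and -7.98, -7.60 and -6.55 in the rest. The difference of 3.49 ± 0.503 (SE) left a gap of 2.25 between the groups. Within DL this ratio had an SD of 0.458, against 0.964 for log2 CPM of ucp3 itself. In the rest the order was reversed, at 0.741 against 0.486. The same ratio overlapped between the groups for ucp2, at -4.75 ± 0.613 and -4.93 ± 0.554, and for ucp1, at -4.29 ± 1.57 and -3.19 ± 1.17 (SD). Relative to the 13 protein-coding genes of the mitochondrial genome, ucp3 was higher in DL by 3.84 ± 1.02 (SE), again with no overlap. That ratio had an SD of 1.66 in DL and 0.612 in the rest, each above the SD of log2 CPM of ucp3.

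Against slc12a3 the log2 ratio of ucp3 was 0.32, -1.47 and 1.61 for the DL replicates in order and -1.93, -2.17 and -1.74 in the rest. The ratio was highest in DL replicate 3, the library in which slc12a3 was at the level of the rest libraries. In that library ucp3 was the lowest of the 3 DL values and still 7.8 times the highest rest value.

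**Figure D2:**
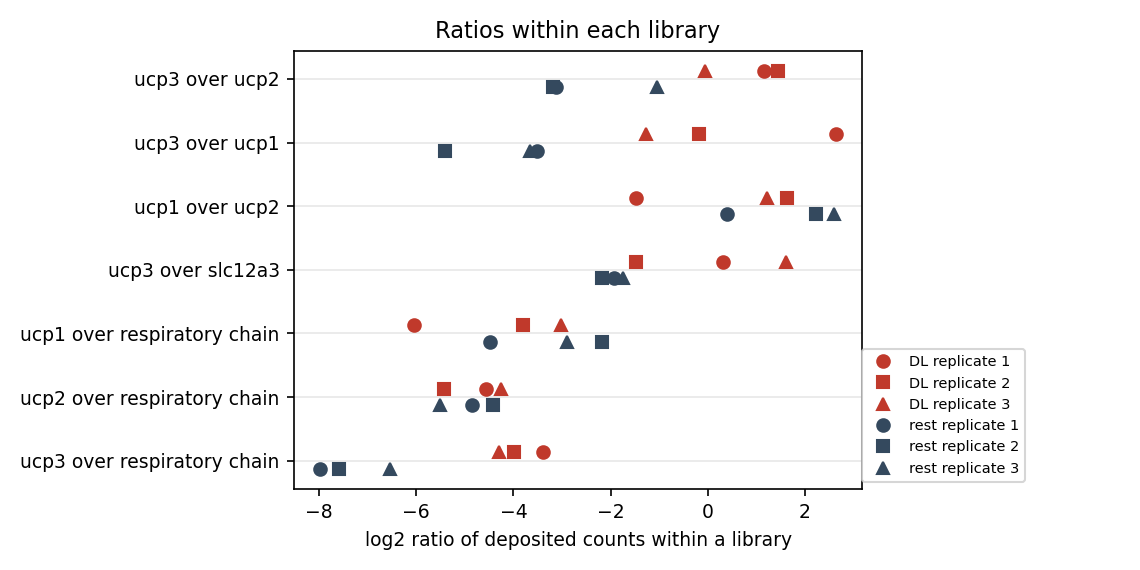
Log2 ratios of deposited counts within each library for pairs of genes and for each uncoupling protein gene over the summed nuclear respiratory chain; red points are DL and dark points rest, with shapes for replicates. The ratios with ucp3 as the numerator do not overlap between the groups, while ucp1 over ucp2 and the ucp1 and ucp2 ratios to the respiratory chain do.

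In the list of nearest relatives within the carrier family, the symbol slc25a30 matched no row, so that gene is not covered. Of the 6 rows that matched, 4 were tested, with log2 fold changes from -0.40 to 0.68. None was called by edgeR or DESeq2, where 0.0644% and 1.36% of all genes were called higher. At an unadjusted edgeR p under 0.05 there were 0, against 4.09% higher and 2.73% lower over all genes. The gene slc25a14, whose mammalian counterpart is also called UCP5, stood at 18.51, 20.36 and 18.04 CPM in the DL libraries and 17.38, 13.68 and 15.08 CPM in the rest libraries. Its DL libraries all lay above its rest libraries by a narrow margin, with a log2 fold change of 0.30 ± 0.453 (SE) and an edgeR adjusted p of 0.999. SLC25A27, the counterpart of UCP4, a brain carrier in mammals, had only 7.24 counts over the 6 libraries and was not tested. SLC25A11, the oxoglutarate carrier, had a log2 fold change of 0.39 ± 0.494, and the dicarboxylate carrier copy SLC25A10_ENSDARG00000025074 one of -0.40 ± 0.67. The list had a median of 0.35 against -0.07 over all genes tested.

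The ADP/ATP carriers, which exchange matrix ATP for cytosolic ADP and can also leak protons, were not called either, with 2 of 3 genes tested. Of these 0 had an unadjusted edgeR p under 0.05, against 4.09% higher and 2.73% lower over all genes. SLC25A5 stood at 1293, 3373 and 1916 CPM in the DL libraries and 1587, 1372 and 891.5 CPM in the rest libraries. The groups overlapped, with a log2 fold change of 0.77 ± 0.645 and an edgeR adjusted p of 0.977. SLC25A6 was near 0 in every library, between 0 and 1.355 CPM, and SLC25A4 had 158 counts in all and was not tested. The listed symbol slc25a31 matched no row.

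Fatty acids are both fuel and activators in the biology of uncoupling proteins. Of 32 tested genes of fatty acid uptake and oxidation 27 had positive fold changes, with a median of 0.79 against -0.07 over all genes. EdgeR called 0 of them in either direction, while 6 were higher and 1 was lower at an unadjusted p under 0.05, against 4.09% higher and 2.73% lower over all genes, of which 46.5% had positive fold changes. DESeq2 called 2 higher (1.36% of all genes were), both of them carnitine palmitoyltransferase genes, which gate the entry of long fatty acids into mitochondria. The first, cpt1ab, stood at 44.74, 86.78 and 64.11 CPM in the DL libraries and 12.21, 15.05 and 13.72 CPM in the rest libraries. Its groups were far apart, with a log2 fold change of 2.26 ± 0.446, an edgeR adjusted p of 0.11 and a DESeq2 adjusted p of 0.000859. The second, CPT1B, averaged 38.5 ± 14.1 CPM in DL libraries against 10 ± 2.79 CPM elsewhere (SD, n = 3 each), with a DESeq2 adjusted p of 0.0243 (edgeR adjusted p = 0.237). The most abundant member, the fatty acid activating enzyme gene ACSL4_ENSDARG00000010752, had 117.7 ± 51.08 CPM in DL segments against 76.79 ± 5.028 CPM, with an edgeR adjusted p of 0.947. The smallest p among negative changes was that of a fatty acid transporter copy, SLC27A1_ENSDARG00000104949, at a log2 fold change of -2.13 ± 0.944 and an edgeR adjusted p of 0.701.

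Among 30 tested genes of regulators known to act on uncoupling protein genes in mammals, 15 were positive and 15 negative. EdgeR called 0 (4 higher and 0 lower at an unadjusted p under 0.05, against 4.09% and 2.73% of all genes) and DESeq2 called 3 higher, against 1.36% of all genes. They were both copies of prdm16, a factor that sets brown fat identity in mammals, and PPARGC1A, a coactivator of mitochondrial genes. The copy prdm16_ENSDARG00000078324 stood at 164.1, 166.6 and 97.87 CPM in the DL libraries and 25.75, 22.41 and 17.48 CPM in the rest libraries. All DL libraries were well above all rest libraries, with a log2 fold change of 2.71 ± 0.456, an edgeR adjusted p of 0.0675 and a DESeq2 adjusted p of 4.37e-06. The other copy, prdm16_ENSDARG00000092738, averaged 9.81 ± 0.736 CPM in DL libraries against 0.892 ± 1.3 CPM elsewhere, with a DESeq2 adjusted p of 0.0441 (edgeR adjusted p = 0.412). PPARGC1A stood at 102, 65.92 and 19.76 CPM in the DL libraries and 17.08, 9.866 and 14.57 CPM in the rest libraries. Its groups did not overlap, but DL replicate 3 lay above rest replicate 1 only by a narrow margin. The log2 fold change was 2.18 ± 0.59, with a DESeq2 adjusted p of 0.0279 (edgeR adjusted p = 0.291).

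The nuclear receptors in that list had fold changes of both signs, and edgeR and DESeq2 called none of them. Over all genes 0.0644% and 1.36% were called higher, so the absence of a call among so few genes says little. The fatty acid receptor gene PPARA had a log2 fold change of 0.08 ± 0.565, its copy pparaa one of 1.19 ± 0.799, and pparg, the receptor of fat cells, one of -1.18 ± 0.869. The partner receptor RXRA_ENSDARG00000057737 had the smallest p among negative changes, at -1.27 ± 0.589 and an edgeR adjusted p of 0.736. The most abundant regulator, the stress-response factor gene foxo3b, stood at 123.7 ± 8.816 CPM in the DL libraries and 82.08 ± 20.42 CPM for the rest (SD, n = 3 each), an edgeR adjusted p of 0.943.

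Genes of antioxidant defence, in mitochondria and elsewhere in the cell, were not called by edgeR or DESeq2. With 0.0644% and 1.36% of all genes called higher, that absence says little. Control of reactive oxygen species is the other process linked to UCP2 and UCP3. Of 14 tested 10 were positive, with a median of 0.28, against 46.5% and -0.07 over all genes. At an unadjusted edgeR p under 0.05, 1 was higher and 0 lower, against 4.09% and 2.73% of all genes. The glutathione peroxidase gene gpx1b had a log2 fold change of 2.12 ± 0.659 and an edgeR adjusted p of 0.398. NNT, the transhydrogenase that uses the proton gradient to make NADPH, was the most abundant member, at 133.8 ± 62.2 CPM in DL against 72.57 ± 25.97 CPM. GSR, glutathione reductase, had the smallest p among negative changes, with a log2 fold change of -0.72 ± 0.606.

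Of the 98 nuclear respiratory chain genes 91 were positive (92.9%, against 46.5% of all genes), with a median of 0.92 against -0.07. Their sum overlapped between the groups, with DL replicate 3 at 1979 CPM below rest replicate 1 at 2793 CPM. For 9 of the 98 every DL library lay above every rest library, as for 6.81% of all genes. DESeq2 called 5 higher, against 1.36% of all genes, and edgeR called 0. Before adjustment 15 were higher at p under 0.05 in edgeR, against 4.09% of all genes. One of them, cox4i1l, a cytochrome oxidase subunit gene, averaged 41.1 ± 25.6 CPM in DL libraries against 6.69 ± 3.77 CPM elsewhere, with a DESeq2 adjusted p of 0.00721 (edgeR adjusted p = 0.219). The most abundant, ATP5F1A, the catalytic-core alpha subunit of ATP synthase, had a log2 fold change of 0.69 ± 0.624, and the smallest p among negative changes, that of SDHD_ENSDARG00000030139, a succinate dehydrogenase subunit, came with -0.64 ± 0.706. All 13 protein-coding genes of the mitochondrial genome were positive (median 0.996). None was called by edgeR or DESeq2, with 0 at an unadjusted p under 0.05. Among them MT-CO1 was the most abundant, with a log2 fold change of 0.72 ± 0.967, and MT-ND3 had the smallest p, with one of 1.47 ± 0.761. The 13 genes summed to 39120, 156000 and 124100 CPM in DL replicates 1 to 3. In rest replicates 1 to 3 the sums were 75440, 57030 and 47980 CPM, so DL replicate 1 lay below every rest library. For 0 of the 13 did every DL library lie above every rest library, against 6.81% of all genes. Over the 193 tested genes of all 7 lists together, edgeR called 0 and limma-voom 0, where 0.0644% and 0.0351% of all genes were called higher. DESeq2 called 10 higher and 0 lower, against 1.36% and 0.34% of all genes. All 7 lists were chosen with earlier results of these data known. Their counts and p-values are therefore descriptions and no independent test.

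**Figure D3:**
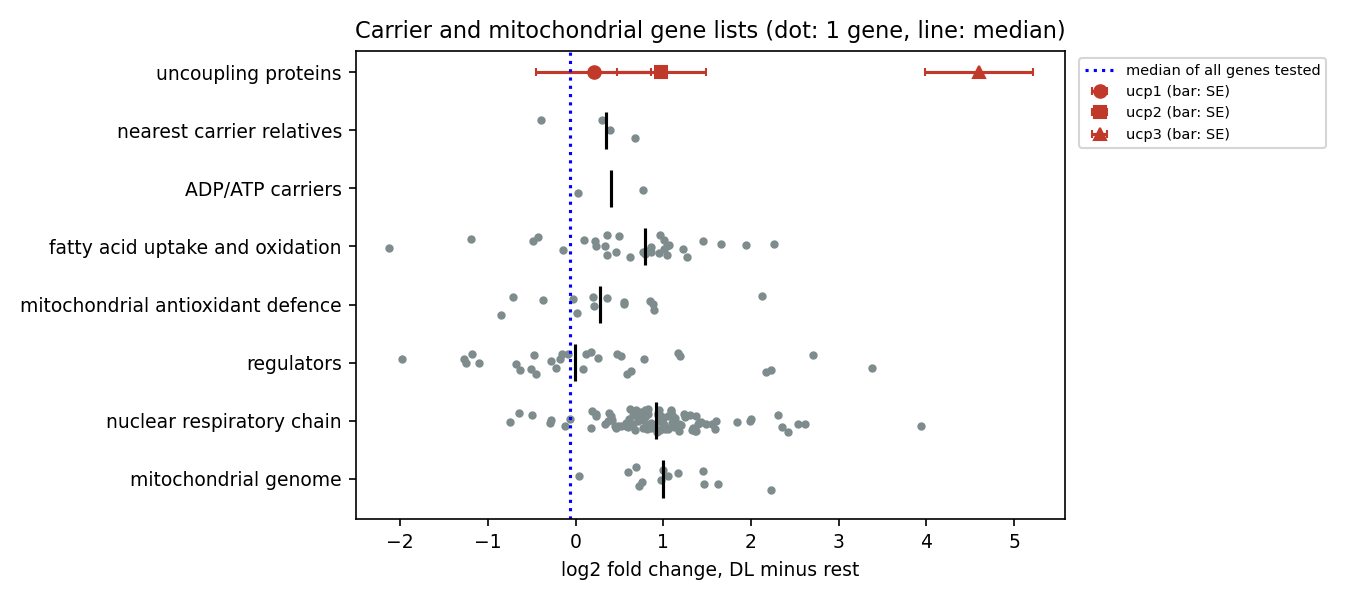
Log2 fold changes (DL minus rest) of the uncoupling protein genes with their SE and of the genes of each list; black lines are list medians and the dotted line is the median of all genes tested, -0.07. ucp3, at 4.59, lies beyond every gene of the lists, while ucp1 and ucp2, at 0.20 and 0.98, lie within their range.

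The genes whose pattern across the 6 libraries was most like that of ucp3 were other genes high in DL. Among 7285 candidate genes the highest Pearson correlations of log-CPM were with slc9a3.2 (r = 0.995), a sodium-proton exchanger, and TFAP2B (0.995), a transcription factor of the distal nephron. Next came slc12a10.3 (0.993), a relative of the sodium-chloride cotransporter, atp1a1a.5 (0.993), a sodium pump subunit with near-identical tandem copies, and ERBB3 (0.992), a growth factor receptor. The last 3 of the 8 were PDK4 (0.991), a kinase that shuts off pyruvate dehydrogenase when fat is burned, the sodium pump subunit ATP1B1_ENSDARG00000013144 (0.990) and uacaa (0.990). In all, 92 candidates had r above 0.95. The points share 6 libraries and the split between the groups, so these values describe the pattern and carry no p.

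PDK4 stood at 148.8, 171.7 and 87.02 CPM in the DL libraries and 42.19, 27.21 and 34.77 CPM in the rest libraries, with DL replicate 3 the lowest DL library as for ucp3. TFAP2B stood at 94.72, 130 and 20.71 CPM in the DL libraries and 2.714, 1.055 and 2.882 CPM in the rest libraries. Within both groups TFAP2B and uacaa had the same order of libraries as ucp3. PDK4, slc12a10.3 and ATP1B1_ENSDARG00000013144 had it within DL only. These genes were picked by their correlation with ucp3 over the same libraries, so a like order was largely built in.

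For ucp2 the most similar genes were MAPK12_ENSDARG00000042021 (r = 0.993), a stress-activated kinase, SLC25A35 (0.993), another mitochondrial carrier of the same family with a log2 fold change of 1.57, and PAX2_ENSDARG00000028148 (0.990), a kidney transcription factor. That PAX2 copy stood at 123.4, 103.1 and 99.1 CPM in the DL libraries and 72.23, 33.14 and 13.58 CPM in the rest libraries, which is the library order of ucp2. The others were STX3_ENSDARG00000001880, FHOD1, VPS4B, FHL1_ENSDARG00000056653 and WASL_ENSDARG00000006283, with r between 0.984 and 0.989. Of these, VPS4B and FHL1_ENSDARG00000056653 also had the library order of ucp2. All were picked by their correlation with ucp2 over the same libraries, so a like order was largely built in. For ucp1 the most similar genes were LONP2 (0.981), a peroxisomal protease, nfil3-5 (0.976) and RPL30 (0.974). H1-10, ZNF384, inpp5l, gpx4a and rsf1b.1_ENSDARG00000068640 followed, with r between 0.970 and 0.972. Between the members r was 0.691 for ucp2 and ucp3, -0.167 for ucp1 and ucp3 and -0.19 for ucp1 and ucp2.

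**Figure D4:**
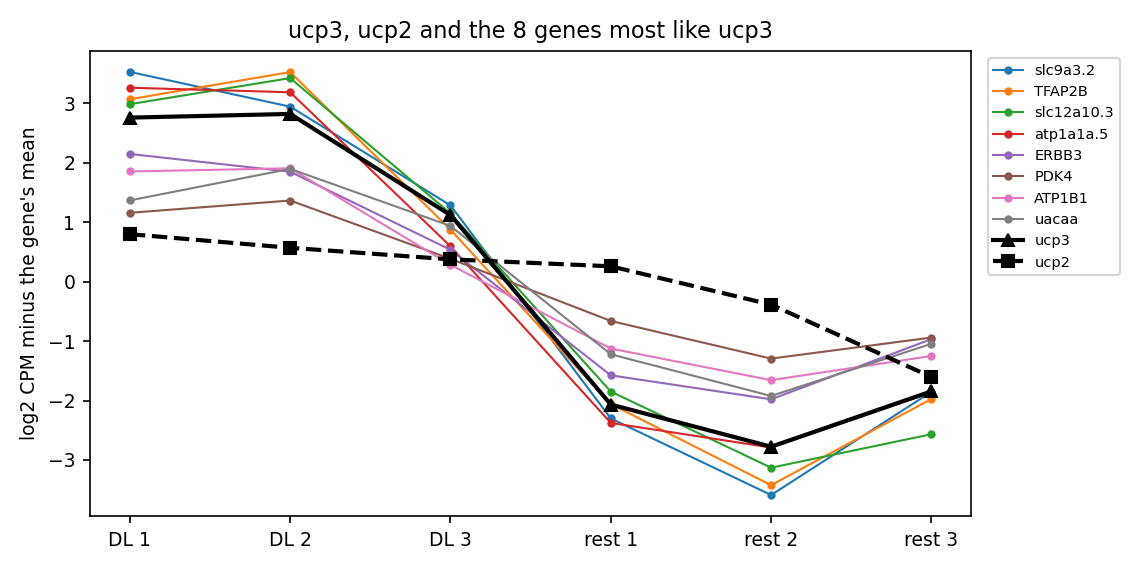
Log2 CPM of ucp3, ucp2 and the 8 genes most like ucp3, each minus its own mean over the 6 libraries; lines only join the points of a gene. ucp3 follows the 8 genes in being high in DL replicates 1 and 2, intermediate in DL replicate 3 and low in the rest, whereas ucp2 is lowest in rest replicate 3.

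In the RefSeq gene order of GRCz12tu, ucp3 and ucp2 are direct neighbours and ucp1 lies elsewhere. RefSeq also lists ucp2l as another name of ucp3, and UCP3 and ucp4 as other names of ucp1. Of the 12 other gene positions within 3 places of a member, 5 could be matched by a symbol held by 1 table gene, and all 5 were tested. None was called by edgeR, at adjusted p-values of 0.993 to 0.999, where 0.0644% of all genes were called higher and 0% lower. At that share, the absence of a call among 5 genes says little. On the far side of ucp3 from ucp2, the next gene, rsf1b.1, was not matched, because more than 1 table gene holds its symbol. A table gene of that symbol, rsf1b.1_ENSDARG00000068640, had a log2 fold change of 0.13. On the far side of ucp2 from ucp3, dnajb13, a sperm and cilium cochaperone gene, had a log2 fold change of -1.03 ± 0.982, mrpl48 one of 0.03 ± 1.41 and rab6a one of 0.03 ± 0.467. Beside ucp1, tbc1d9 and elmod2 had log2 fold changes of -0.40 ± 0.689 and -0.31 ± 0.794. The related ucp2 and ucp3 genes may share reads. Counts were kept to 4 significant digits, so those of 4 digits or more could not show a fraction. Among the smaller ones, ucp3 in the rest libraries and ucp1 in rest replicate 3 (953.8) were not whole numbers. The counts of ucp2 in rest replicate 3 (156) and ucp1 in DL replicate 1 (359) were whole. How the counting divided shared reads is not given in the sources used here, and sharing was not tested.

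Cells outside the tubule that are known to express uncoupling proteins were checked by their markers. For skeletal muscle, where UCP3 is high in mammals, 21 matched genes summed to 38.41 to 68.91 CPM across DL and 52.74 to 77.63 CPM across the rest. The muscle calcium-buffer genes pvalb1 and pvalb2 were at 0 in every library and the creatine kinase gene ckma reached at most 0.1134 CPM, and the most abundant was a troponin gene, TNNI2_ENSDARG00000005841. In all, 5 of the 21 were at 0 in every library. Others were detected and varied. The muscle calcium pump gene atp2a1 ran from 0.3376 to 9.095 CPM across DL and from 0.01625 to 18.15 CPM across the rest. The actin copy ACTA1_ENSDARG00000055618 reached 12.75 CPM in DL replicate 1, and the myosin gene myhz1.1 reached 7.927 CPM in rest replicate 3. Adipocyte markers (10 genes) summed to 23.66 to 77.16 CPM across DL and 57.5 to 176.4 CPM across the rest. Of the 10, 3 were at 0 throughout, plin1 among them, and fabp4a was the most abundant. LPL_ENSDARG00000087697 stood at 4.863 to 26.48 CPM across DL and 8.949 to 78.68 CPM across the rest, and CIDEC reached 10.02 CPM in rest replicate 2. Of 3 adipocyte genes tested 0 had positive fold changes, with a median of -1.83.

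White blood cell markers, relevant to ucp2, summed over 24 genes to 407.8, 1273 and 927.2 CPM in the DL libraries and 1345, 1876 and 386.1 CPM in the rest libraries. Of 19 tested 4 had positive fold changes, with a median of -0.98. DL replicate 1 had the lowest sum of its group and the highest ucp2, and rest replicate 3 the lowest sum and the lowest ucp2 of its group. Proximal tubule markers (12 genes) summed to 739.7 to 791.2 CPM across DL and 661.5 to 1535 CPM across the rest, and erythroid markers (10 genes) to 43.79 to 744.1 and 117.5 to 604.9 CPM. The part of any of these cells in the values of ucp1, ucp2 and ucp3 was not tested.

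The fold change of ucp3 stayed between 4.15 and 5.01 over 14 alternative analyses, and that of ucp2 between 0.24 and 1.46, positive in all 14. That of ucp1 ran from -0.38, without DL replicate 2, to 0.72, without DL replicate 1, and kept its sign in 10 of 14; the other 4 included limma-voom (-0.26), library totals alone (-0.03) and the analysis without rest replicate 1 (-0.02). Scaling by library size alone, the median of all genes moved from -0.07 to -0.50, and all 3 members lay above that median.

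**Figure D5:**
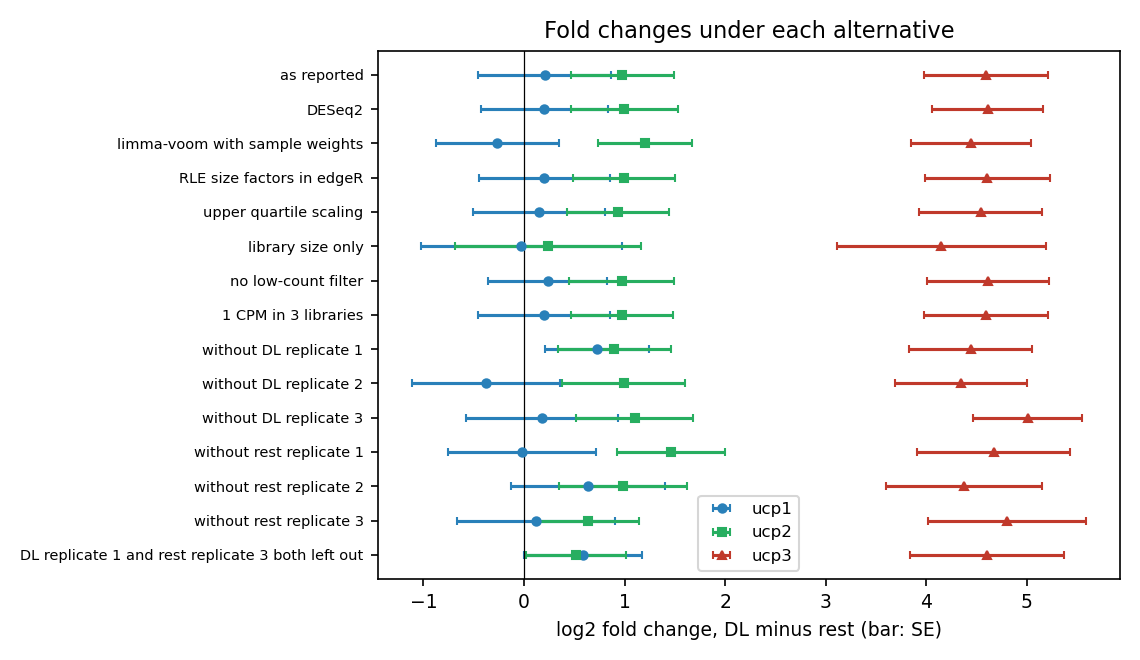
Log2 fold changes (DL minus rest, bars SE) of ucp1, ucp2 and ucp3 in the analysis as reported and in 14 alternatives. ucp3 stays between 4.15 and 5.01 in each, ucp2 between 0.24 and 1.46, and ucp1 lies on both sides of 0.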

How the data were processed

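RNA-seq libraries were made from hand-dissected tissue with the NuGEN Ovation Single Cell system, per the labels' protocols. The authors deposited 1 table of estimated counts per Ensembl gene, not scaled between libraries, partly fractional and kept to 4 significant digits. For aligner, counter, strand setting and genome build, the sources used here give nothing. Libraries were matched by column name, with replicates numbered in order of deposition, and 0 columns were left over. Symbols matched 26121 genes.

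Counts were rounded, filtered with filterByExpr, scaled by TMM and compared by edgeR 4.0.16 under R 4.3.3 (quasi-likelihood test, robust, Benjamini-Hochberg at 0.05 over 17083 genes). Each SE of an edgeR log2 fold change is the size of that change divided by the root of F. The SE of a difference in within-library log2 ratios was instead taken from the spread of the library ratios in each group, with no fitted model. The SEs of DESeq2 and limma-voom fold changes came from their own fits. Log-CPM used a prior count of 2. CPM values were counts over the TMM-scaled library size. The edgeR procedure was also run on counts simulated from the fitted dispersions and TMM-scaled library sizes. That run held no pairing and no gene dominating only some libraries, and nothing is read from it here.

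The family members and the lists were chosen with earlier results of these data known. List members matched a symbol with or without a copy letter, by which 2 ACADSB rows joined the fatty acid list, and the respiratory and mitochondrial lists matched by symbol start. Named genes are the members, slc12a3, for each list the smallest p per direction and the most abundant gene, the 8 genes most correlated with each member (mean log-CPM of at least 3, no clone names) and up to 3 RefSeq neighbours on each side. Other named genes (those called by DESeq2, PPARA, pparaa, pparg, SLC25A6, SLC25A4, SLC25A27 and markers) were chosen after their values were seen. Alternatives were DESeq2 1.42.0, limma-voom (limma 3.58.1) with sample weights, other scalings and filters, and leaving out libraries.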

Additional observations from a re-analysis of the deposited data

How the results depend on the processing

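Over the 14 alternatives the log2 fold changes of ucp1 and ucp3 moved by less than the spread between replicates, as did that of ucp2 except with library size as the only scaling, where it was 0.24. The number of genes called higher over all genes, 11 as reported, was 233 with DESeq2 (58 lower), 6 with limma-voom, 1 with library size only and 99 without a low-count filter (7 lower), and 0 with DL replicate 1 and rest replicate 3 both left out. Leaving out each replicate in turn gave 0 to 51 higher and 0 to 2 lower, with 51 and 2 without DL replicate 3 and 0 without any other. For the lists, 0 as reported became 10 higher with DESeq2 and 3 without a low-count filter, and 0 to 1 when each replicate was left out (1 without DL replicate 3). Of the 14 alternatives 7 called ucp3, and of the 6 that left out a replicate 1 did. The causes were not tested. No paired analysis was run, because the labels give no replicate numbers. They do not say which DL and rest libraries, if any, came from the same fish. In order of deposition DL and rest libraries alternate, which may or may not reflect pairs. A pairing may exist and is unresolved. With 3 libraries a group, only wide differences could be called. No floor or interval was needed for the members, since their lowest count was 75.98.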
